A study of Rattus norvegicus with 4 samples.

Results

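The interleukin 1 system was followed in cultured rat peritubular myoid cells through 10 genes. They were the cytokines Il1a, Il1b, Il18 and Il33, the receptor antagonist Il1rn, the receptor chains Il1r1, Il1rap, Il1r2 and Il1rl1, and the protease Casp1. Probes were taken by the gene name in the scanner files, with older symbols allowed, and Il33 was found under its older symbol RGD1311155. This gave 16 of the 41012 probes on the array, in 25 of its 43379 non-control spots. The set was put together after Il1rn had been seen lower on the arrays numbered 2, so the differences between arrays numbered 2 and 1 are described here and not tested.

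Peritubular myoid cells are the contractile cells around the seminiferous tubule. All 4 samples were total RNA from such cells, isolated from testes of 40-day-old male rats and cultured for 4 days in DMEM/F-12 to which defined growth factors were added. In the testosterone group (2 arrays) the cells received 1e-07 M testosterone in pulses. The control group (2 arrays) is named control in its titles, but its treatment text is the same as that of the testosterone group and does not say what these cells received. The labels name no strain and do not say whether replicates came from different animals or cultures. Any p-value here therefore reflects only how far these particular arrays differ, and that difference may be technical.

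IL-1 alpha and IL-1 beta bind the receptor Il1r1, which recruits the accessory chain Il1rap and signals through Myd88 and the Irak kinases to NF-kappaB. The antagonist made from Il1rn occupies Il1r1 without recruiting Il1rap, and Il1r2 is a decoy receptor that binds IL-1 without signalling. Casp1 is the protease that cleaves the precursors of IL-1 beta and IL-18, and Il1rl1 is the receptor for IL-33. In the testis, IL-1 is known as a product of Sertoli cells and macrophages and acts on somatic cells of the tubule and the interstitium.

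A level is the log2 of a probe's processed signal after subtracting the array's 75th percentile, so 0 is the 75th percentile of that array's spots and a difference of 1 is 2-fold. Levels of different probes are not comparable with each other. All 4 arrays lay on 1 slide and were scanned together, with the arrays numbered 2 in positions 1 and 2 and those numbered 1 in positions 3 and 4, so that number and slide position cannot be told apart. Between 63.5% and 68.2% of non-control spots were well above background. Control replicate 1 had 115 of the 116 spots that read at least 8-fold below every other array, all of them in array columns 57 to 85. Of the 10 genes, the probes of Il18, Il1r1 and Il1r2 that stand for the gene, 3 of the 10 spots of Il1b, and the second probes of Il1b and Il1rn lay in those columns. Among markers of the labelled cell type, Myl9, a myosin light chain, stood between 5.68 and 6.11 and Des, desmin, between 1.68 and 2.46. Tagln, a smooth muscle actin-binding protein, stood between -4.63 and -2.75, Cnn1 was not well above background on both arrays of either group, and no probe was named Acta2 or Myh11.

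All 10 genes were measured. Of the 16 probes 15 were well above background on all 4 arrays and 0 were saturated, and all 16 entered the tests. The second Il1rl1 probe was not well above background on testosterone replicate 2. For 6 genes there were 2 probes, and the brighter one stood for the gene.

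The genes lie in few places of the rat genome. On the build used by the files, rn4, the probe of Il1a (chromosome 3, 116914826 to 116914885, minus strand) and the nearer probe of Il1b (chromosome 3, 116964465 to 116964524, minus strand) were 49580 bases apart. The Il1rn probe lay elsewhere on that chromosome (2613130 to 2613189). Il1r2 (chromosome 9, 39316654 to 39319494), Il1r1 (39462421 to 39464677) and Il1rl1 (39617225 to 39617284) formed a row on chromosome 9. Between these probes of Il1r2 and Il1r1 lay 142927 bases. The second Il1r1 probe (39472634 to 39473165) was nearer to the Il1rl1 probe, with 144060 bases between them. Among the probes that stand for the gene, those of Il1r1 and Il1r2 spanned 2257 and 2841 bases of genome, against 60 for the other 8 genes. The second probes of Il1rl1, Il1rn and Il1r1 spanned 1468, 1035 and 532 bases. Il18 (53943005 to 53943064) and Casp1 (2032917 to 2032976) were on chromosome 8, Il1rap (76113640 to 76113699) on chromosome 11 and Il33 (233685259 to 233685318) on chromosome 1.

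The 250 bases before the start of 4 genes are shown because these genes differed at least 2-fold between arrays numbered 2 and 1, Il1b, Il18 and Il33 being higher on number 2 and Il1rn lower. Il1r2 differed as much but is named only, since no promoter was given for it. They come from RefSeq on build GRCr8, whose coordinates are not those of the array files, and are written 5′ to 3′ in the direction of the gene. Capitals mark matches on either strand to the TATA box (TATAAA), the AP-1 motif (TGANTCA), the C/EBP motif (TTGCNNAA) or the kappaB motif.
Il1b, chr3:137036582-137036831, - strand: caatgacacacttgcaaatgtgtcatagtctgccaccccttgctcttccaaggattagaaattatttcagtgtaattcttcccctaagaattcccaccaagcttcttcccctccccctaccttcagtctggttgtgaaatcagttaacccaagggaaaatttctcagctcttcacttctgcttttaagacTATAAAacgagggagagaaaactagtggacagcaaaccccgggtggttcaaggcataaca
Il18, chr8:59801822-59802071, + strand: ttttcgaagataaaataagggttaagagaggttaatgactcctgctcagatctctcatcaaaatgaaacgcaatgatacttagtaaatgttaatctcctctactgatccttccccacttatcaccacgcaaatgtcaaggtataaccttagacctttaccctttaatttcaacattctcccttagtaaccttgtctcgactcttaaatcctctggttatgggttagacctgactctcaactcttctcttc
Il33, chr1:237134696-237134945, + strand: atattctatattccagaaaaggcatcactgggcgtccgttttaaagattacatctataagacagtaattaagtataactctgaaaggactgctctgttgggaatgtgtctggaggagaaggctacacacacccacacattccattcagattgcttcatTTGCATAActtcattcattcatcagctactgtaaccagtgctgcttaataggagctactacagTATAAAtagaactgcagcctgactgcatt
Il1rn, chr3:27520072-27520321, + strand: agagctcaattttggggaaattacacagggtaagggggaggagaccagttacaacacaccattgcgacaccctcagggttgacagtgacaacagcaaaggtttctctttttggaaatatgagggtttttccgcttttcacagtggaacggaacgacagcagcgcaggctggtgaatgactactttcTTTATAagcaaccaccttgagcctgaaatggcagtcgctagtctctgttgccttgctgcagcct

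The Il1b window held a TATA box match 60 to 55 bases before the start and the Il1rn window one on the opposite strand 64 to 59 bases before it. The printed Il33 window, which belongs to the downstream of its starts in the table, held a TATA box match 29 to 24 bases before the start. It also held a C/EBP match 92 to 85 bases before it. The Il33 window at the upstream start, which is not printed, and the Il18 window held none of the 4 motifs. Over 33469 rat promoter windows of the same length, 12.9% held a TATA box match, 6.34% an AP-1 match, 9.22% a C/EBP match and 3.54% a kappaB match. Among 9 of the 10 genes with a promoter in the table, kappaB matches were found in Il1r1 and Il1rap and an AP-1 match in Il1a. A match to the androgen response element, present in 0.374% of windows, was found in none of them. Printed matches did not overlap each other.

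Il1b, which encodes IL-1 beta, was low on both arrays numbered 1 and high on both numbered 2. It stood at 0.067 and 2.07 on testosterone replicates 1 and 2, and at 0.016 and 1.91 on control replicates 1 and 2. The arrays numbered 2 were 2.01 higher among testosterone arrays and 1.89 higher among controls, a mean of 1.95 on the log2 scale or 3.86-fold. The second Il1b probe gave 0.13 and 2.06 with testosterone and 0.024 and 1.78 in control. Both probes thus had the arrays numbered 2 above those numbered 1 with no overlap.

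The first Il1b probe was printed in 10 spots, which gives a direct measure of error within an array. The SD over these spots was 0.085 and 0.088 on testosterone replicates 1 and 2, and 0.11 and 0.063 on control replicates 1 and 2, where 1 outlier spot of control replicate 1 was left out. The highest single spot on a number 1 array read 0.21 and the lowest on a number 2 array 1.78. The gap between the numbers was thus larger than the whole spread between spots. The treatments differed by 0.050 on number 1 and 0.16 on number 2.

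**Figure D1:**
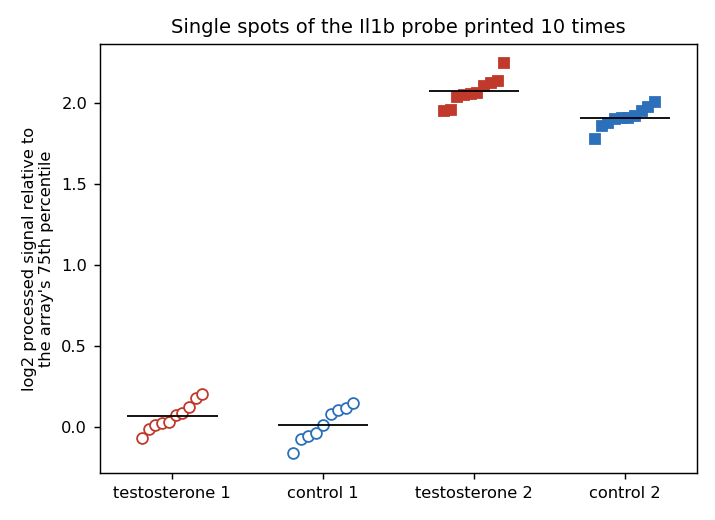
Level of each spot of the Il1b probe that was printed 10 times (y axis, log2 processed signal relative to the array's 75th percentile) on the 4 arrays (x axis), with a line at the mean. Spots of the arrays numbered 1 lie between -0.16 and 0.21, and those of the arrays numbered 2 between 1.78 and 2.24.

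Il1a, the gene of IL-1 alpha, was dim. It read -3.54 and -2.91 on testosterone replicates 1 and 2 and -3.69 and -2.94 on control replicates 1 and 2, which correspond to processed signals of 39.7, 47.2, 32.5 and 51.7. Both arrays numbered 2 lay above both numbered 1, by 0.64 with testosterone and 0.74 in control.

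Il18, a cytokine that Casp1 activates, stood at 0.75 and 1.88 on testosterone replicates 1 and 2 and at 0.78 and 1.88 on control replicates 1 and 2. It was 1.13 higher on number 2 among testosterone arrays, and the mean over both treatments was 1.11 higher, or 2.16-fold. Its second probe differed by 1.25 and 0.86 in the same direction.

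Il33, an IL-1 family cytokine stored in the nucleus, stood at -0.28 and 1.09 with testosterone and at -0.086 and 0.68 in control, in replicate order. The arrays numbered 2 were 1.37 higher with testosterone and 0.77 higher in control. The second Il33 probe was 1.82 and 1.28 higher. Neither probe's arrays of the 2 numbers overlapped.

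Casp1 was bright and nearly level. It read 2.93 and 3.30 on testosterone replicates 1 and 2 and 2.91 and 3.19 on control replicates 1 and 2. Its difference between numbers, 0.32, was smaller than the 1.95 of Il1b and the 1.11 of Il18, whose products it cleaves, although the arrays of the 2 numbers did not overlap.

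Il1rn went the other way from the cytokines. It stood at 4.83 and 3.52 on testosterone replicates 1 and 2 and at 4.90 and 3.75 on control replicates 1 and 2. The processed signals behind these levels were 13126, 4055, 12529 and 5344. Arrays numbered 2 were lower by 1.31 with testosterone and by 1.16 in control (differences of -1.31 and -1.16), which makes number 1 2.35-fold above number 2. The second, much dimmer Il1rn probe had differences of -0.75 and -0.30. These are the values that led to the choice of the gene set. The change of Il1b relative to Il1rn between numbers was 3.31 with testosterone and 3.05 in control.

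Among the receptors, the signalling chains differed little between arrays, by 0.20 for Il1r1 and 0.23 for Il1rap between numbers. Il1r1, the signalling receptor, read -1.93 and -1.84 on testosterone replicates 1 and 2 and -2.00 and -1.69 on control replicates 1 and 2. Its second probe lay between -2.96 and -2.82, with the sign between numbers turned (-0.10 against 0.20). Il1rap, the accessory chain, read -0.87 and -0.60 with testosterone and -0.75 and -0.56 in control.

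Il1r2, the decoy receptor, read -0.12 and 1.08 on testosterone replicates 1 and 2 and -2.56 and 1.01 on control replicates 1 and 2. Control replicate 1 was thus far below the other 3 arrays, and the Il1r2 spot lies in column 75, within the columns that held the lost spots of that array. Its difference between numbers was 2.38 over all 4 arrays and 1.16 without control replicate 1. The part of the lost area in this low value was not tested. No second probe was named Il1r2.

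Il1rl1, the IL-33 receptor, showed no common direction. It read 0.58 and 0.84 on testosterone replicates 1 and 2 and 0.70 and 0.34 on control replicates 1 and 2, so number 2 was 0.25 higher with testosterone and 0.36 lower in control (a difference of -0.36). The dim second probe read between -5.58 and -3.78.

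**Figure D2:**
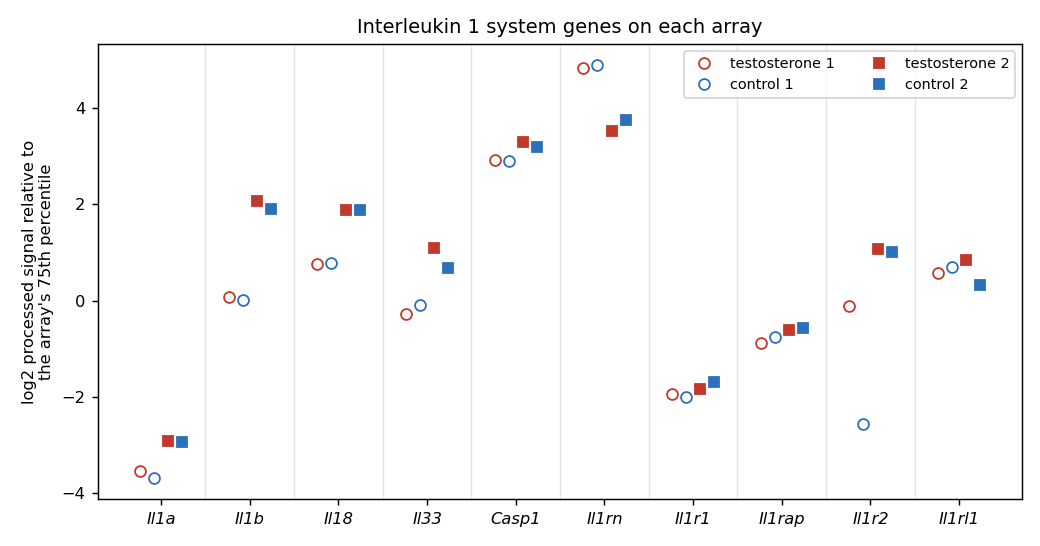
Level of each gene's brighter probe (y axis, log2 processed signal relative to the array's 75th percentile) on the 4 arrays, open symbols for number 1 and filled for number 2, red for testosterone and blue for control. Arrays group by number for Il1b, Il18, Il33 and Il1rn, and Il1r2 on control replicate 1 sits at -2.56; heights of different genes are not comparable.

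Counted over the 10 genes, both arrays numbered 2 lay above both numbered 1 for 8 and below them for 1, Il1rn, with Il1rl1 overlapping. Across all 22023 genes tested the arrays were apart in this way for 38.4% (higher on number 2) and 24.8% (lower). At least 2-fold higher and apart were 4 of the 10, Il1b, Il18, Il33 and Il1r2, where 4.51% of all genes were, and 1 was at least 2-fold lower, where 0.895% were. Since the set was chosen on this contrast, these counts are a description. The median difference between numbers was 0.51 over the 10 genes and 0.079 over all genes tested. Differences at least as large in size as that of Il1b were found for 0.922% of all genes, and for Il1rn the share was 3.30%. The median of all genes was -0.031 after quantile normalization, against 0.079 in the main scaling.

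**Figure D3:**
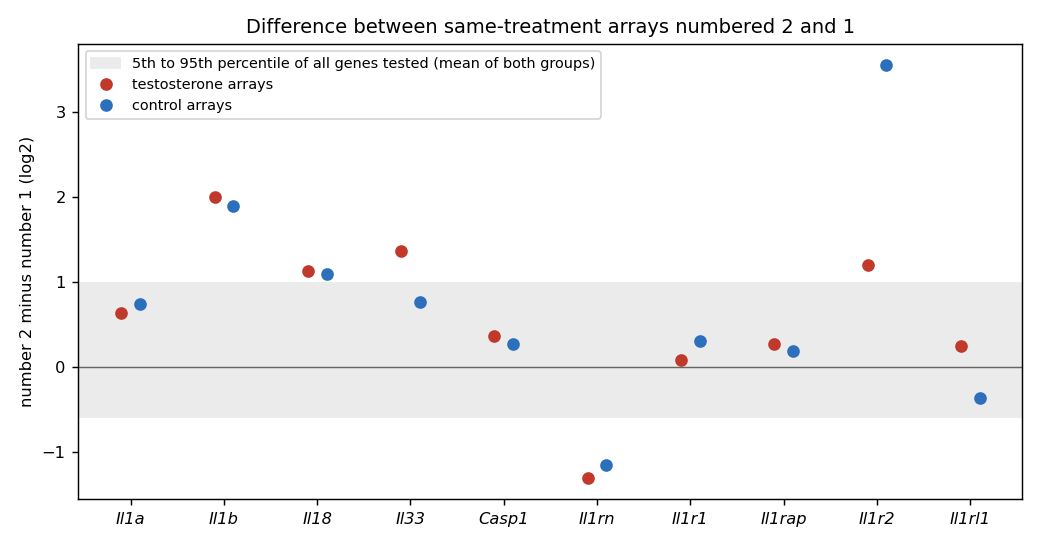
Difference between the arrays numbered 2 and 1 of the same treatment (y axis, log2) for each gene, red for testosterone and blue for control, over a grey band from the 5th to the 95th percentile of all genes tested, -0.58 to 0.99. Il1b, Il18 and Il1r2 lie above the band and Il1rn below it in both treatments.

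Testosterone did not separate the groups for any of the 10 genes. The 2 groups were apart for none of them: 0 of 10 had the testosterone arrays both higher and 0 of 10 both lower, where 6.04% and 9.10% of all genes tested did. At least 2-fold and apart were 0 higher and 0 lower, against 0.563% and 0.150% of all genes, and at least 1.5-fold in either direction 0, against 1.85%. None of the 10 passed limma's test (adjusted p = 1.00 for each over all genes), and 0 had an unadjusted p under 0.05, which 0.795% of all genes had. No gene of the whole array was called (0% higher and 0% lower). An exact permutation test of 2 arrays against 2 can give no 2-sided p below 0.333, and none was run.

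The differences (testosterone minus control) and their 95% intervals show how wide the uncertainty is. For Il1b the testosterone mean was 1.07 ± 1.42 (SD, n = 2) and the control mean 0.96 ± 1.34 (SD, n = 2). The difference was 0.11, with an interval from -2.43 to 2.65. The Il1rn means were 4.17 ± 0.93 and 4.33 ± 0.82 (SD, n = 2), and the difference of -0.15 had an interval whose lower bound was -1.80 and which included 0. These spreads are those between the arrays numbered 1 and 2. Il18 differed by -0.013 (-1.51 to 1.49) and Il33 by 0.11 (-1.39 to 1.61). For Il1a the difference was 0.091, with a lower bound of -0.92.

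The intervals were narrower for the genes that varied little. The Casp1 means were 3.12 ± 0.26 and 3.05 ± 0.20 (SD, n = 2), with a difference of 0.068 (-0.57 to 0.70). For Il1r1 the difference was -0.044 (-0.61 to 0.52), for Il1rap -0.078 (-0.64 to 0.49) and for Il1rl1 0.19 (-0.43 to 0.82). The difference of Il1r2, 1.26 (-2.18 to 4.69), rested on control replicate 1 and was -0.52 without it. That fit sets both testosterone arrays against control replicate 2 alone, so the numbers are unbalanced. Within number 2 the difference was 0.079.

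Between arrays of the same number, testosterone minus control was 0.050 for number 1 and 0.16 for number 2 in Il1b, -0.075 and -0.23 in Il1rn, and -0.027 and 0.0015 in Il18. Il33 differed by -0.19 and 0.41, Il1rl1 by -0.11 and 0.50, and Il1r2 by 2.44 and 0.079. The sign was the same in both numbers for 6 of the 10 genes. Of the 10 mean differences 6 were positive and 4 negative, with a median of 0.079, and over all genes 10549 were positive and 11474 negative with a median of -0.0081.

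**Figure D4:**
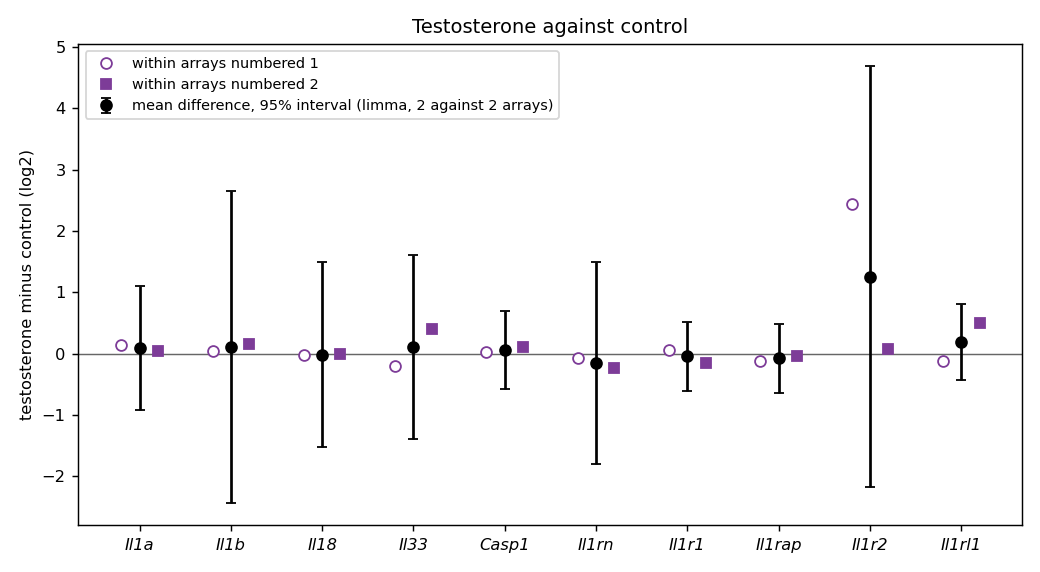
Testosterone minus control (y axis, log2) for each gene, with the mean difference and its 95% interval from limma in black and the differences within arrays numbered 1 (open) and 2 (filled) in purple. Each interval includes 0, and the widest is that of Il1r2, from -2.18 to 4.69.

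Other IL-1 family genes were mostly at background. Of 11 relatives named on the array 3 entered the tests. Il18bp, a secreted inhibitor of IL-18, read 0.26 and 0.48 with testosterone and 0.12 and 0.28 in control. Sigirr, an inhibitory receptor of the family, read 0.75 and 1.26 higher on number 2 than on number 1, at levels from -4.73 to -3.47. Il36b, a cytokine of the IL-36 branch, differed between numbers by -0.80. The chains of the IL-18 receptor were hardly seen, with the Il18r1 probe well above background on 1 array and both Il18rap probes on 0.

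In the processing machinery 7 genes were tested, with 3 higher and 2 lower on number 2, where 38.4% and 24.8% of all genes were. Pycard, the inflammasome adaptor, lay between 3.87 and 4.07 and Gsdmd, the pore-forming substrate of Casp1, between 4.76 and 5.26. Mmp9, a gelatinase that can cleave IL-1 beta, was 0.99 higher on number 2 and Ctss, a lysosomal protease, differed by -0.44. Nlrp3 and Aim2, inflammasome sensors, did not enter the tests.

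Genes of the pathway from the receptor to NF-kappaB were spread on both sides. Of 23 tested, 7 were higher and 10 lower on number 2, against 38.4% and 24.8% of all genes, and the median difference was -0.13. None of the 23 (0) was at least 2-fold higher or lower, against 4.51% and 0.895% of all genes. Irak1, a receptor-associated kinase, differed by -0.64 and Myd88, the receptor adaptor, by -0.58. Nfkbiz, a nuclear regulator of NF-kappaB targets, differed by 0.73, and Nfkbia, an inhibitor of NF-kappaB that NF-kappaB itself induces, by 0.36. For testosterone 0 of the 23 were called, the largest differences in size being those of Irak1 at -0.27 (-1.23 to 0.68), Nfkb2 at -0.20 and Mapk14 at -0.20.

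Genes known to respond to IL-1 in other cells mostly stood higher on number 2. Of 25 tested in this list, 24 were higher and 1, Icam1, lower on number 2, and 16 were at least 2-fold higher, against 38.4%, 24.8% and 4.51% of all genes. Their median difference was 1.23, where that of all genes was 0.079. The 24 include Ccl2 and Vcam1, whose probes were saturated, and without saturated probes 22 of 23 were higher. The list shares this contrast with the choice of the gene set, so no test is given. C3, the central complement component, read 3.49 and 7.14 on testosterone replicates 1 and 2 and 3.57 and 6.76 on control replicates 1 and 2, a mean difference of 3.42. Pla2g2a, a secreted phospholipase, read 1.96 and 4.97 with testosterone and 1.92 and 4.85 in control.

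Mmp13, a collagenase, was 2.46 higher on number 2 and Cxcl6, a neutrophil chemokine, 2.27 higher. Il6 read -3.19 and -1.43 with testosterone and -3.47 and -2.02 in control. Icam1, an adhesion molecule, differed by -0.36. The count of 24 was 23 with the normexp background correction, 21 after quantile normalization, and 20 of 21 without columns 57 to 85. Of all genes, 63.5%, 62.1% and 64.6% were apart in either direction in these settings, against 63.2% in the main setting. Without control replicate 1 only 1 array numbered 1 is left, and 83% of all genes were apart, so that setting is not set beside the others.

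**Figure D5:**
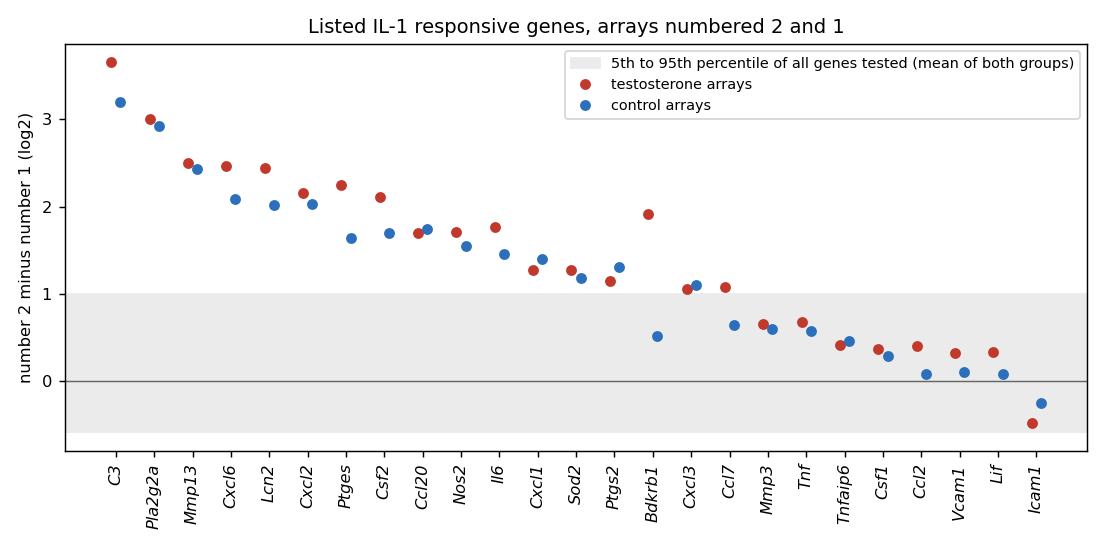
Difference between arrays numbered 2 and 1 of the same treatment (y axis, log2) for the 25 tested genes of the list of IL-1 responsive genes, red for testosterone and blue for control, with the grey band of the 5th to 95th percentile of all genes tested. C3 is highest, at a mean of 3.42, and Icam1 is the one gene below 0 in both treatments, at -0.36.

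Testosterone minus control was above 0 for 24 of these 25 genes and below 0 for 1, with a median of 0.12, while over all genes 10549 of 22023 were above 0 and the median was -0.0081. Without saturated probes it was above 0 for 22 of 23. Within the arrays numbered 1 alone, several of the 24 were below 0. By limma 0 of the 25 were called and 0 had an unadjusted p under 0.05, against 0.795% of all genes. The treatments were apart in 0 of them, against 6.04% (higher) and 9.10% (lower) of all genes. The largest differences were those of Cxcl6 at 0.47 (-2.49 to 3.43), Il6 at 0.43 (-1.69 to 2.56) and Mmp13 at 0.41 (-2.78 to 3.60). Without testosterone replicate 2 the count of positive differences was 2 and without control replicate 1 it was 3, fits in which the numbers are unbalanced.

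Markers of other cells were counted in the same way, against the 38.4% of all genes that were higher and the 24.8% that were lower on number 2. Some of these small lists lay near those shares. All 17 macrophage and leukocyte markers named on the array entered the tests, 8 of them higher and 8 lower on number 2. Their summed level, as signal relative to the 75th percentile, was 223 and 229 on the arrays numbered 1 and 185 and 190.5 on those numbered 2. Such a sum weighs the brightest markers most. The mean of their log2 levels was 2.01 and 2.01 on the arrays numbered 1 and 1.91 and 1.98 on those numbered 2. C1qa, C1qb and C1qc, the complement C1q chains of macrophages, differed by -1.03, -1.15 and -1.04, and Cd68, a lysosomal macrophage protein, by -0.52. Adgre1, the F4/80 antigen, read 1.09 and 2.20 with testosterone and 1.16 and 2.05 in control. In bulk RNA fewer cells of a type and less RNA per cell cannot be told apart.

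Of 7 tested germ cell markers 5 were higher on number 2 and 0 lower, and some of the 5 were not well above background on every array. Their summed level was 0.59 and 0.55 on the arrays numbered 1 and 6.44 and 6.50 on those numbered 2, with Tnp1 and Tnp2, transition proteins of spermatids, 4.70 and 4.86 higher. Of 8 tested epithelial and mesothelial markers 3 were higher and 0 lower, the summed level being 0.62 and 0.68 on number 1 and 1.88 and 1.59 on number 2. Msln, mesothelin, was 4.11 higher on number 2. Of 10 tested Sertoli cell markers 5 were higher, 1 of them saturated, and 4 lower, Cldn11, a tight junction protein, differing by -1.16. Of 7 Leydig cell markers 5 were lower and 2 higher, 1 of the 2 saturated. Cyp11a1, an enzyme of steroid synthesis, differed by -0.93, and Star, a cholesterol carrier, by 0.60. Endothelial markers were higher for 2 and lower for 1 of 4, with Kdr, a receptor for VEGF, 1.92 higher. Of 7 fibroblast markers 4 were saturated, and of the other 3 Lum, lumican, was 1.73 higher and 0 were lower. Smooth muscle markers were higher for 5, 1 of them saturated, and lower for 2 of 9. The part of any of these cells in the differences of the interleukin 1 genes was not tested.

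Genes were ranked by nearness to Il1rn in their pattern over the 4 arrays. Of all genes tested, 24.8% were lower on number 2 with the arrays apart, the order that Il1rn had. No count of near genes is given for another gene, so how unusual the count for Il1rn is was not tested. Among 10184 genes that carry a reference symbol and were detected without saturation on every array, 25 lay within a root mean square difference of 0.10 after centring each gene on its mean. The nearest were Lilrb4, an inhibitory receptor of leukocytes (0.045), Pde8a, a cyclic AMP phosphodiesterase (0.048), Cacna1d, a calcium channel subunit (0.050), and Gas6, a ligand of TAM receptors (0.053). Lilrb4 read 0.73 and -0.66 on testosterone replicates 1 and 2 and 0.70 and -0.47 on control replicates 1 and 2. Gas6 read 5.52 and 4.22 with testosterone and 5.69 and 4.56 in control. With 4 arrays that split in 2 pairs, such likeness says only that the same arrays were high and low.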

How the data were processed

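Total RNA of 4 samples was labelled with Cy3 and hybridised to 1-colour Agilent rat arrays, per the labels' protocols. The deposited scanner files give for every spot a linear intensity, both raw and processed, together with its local background. They were written by Agilent Feature Extraction 11.5.1.1 per the file headers, and by version 10.5 per the submitters' processing notes. Probe positions are on rn4, per the file headers. The authors' deposited series table is on the log2 scale and equalled the log2 processed signal minus 1 constant per array (within 0.01 for 100% of 40749 probes printed once). The constants were 8.79, 8.63, 8.38 and 8.55 for testosterone 1, control 1, testosterone 2 and control 2, the column medians -3.61, -3.62, -3.34 and -3.45.

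Processed signals were taken to log2 and scaled by subtracting the 75th percentile of the array's non-control spots. Spots flagged as outliers were dropped, saturated ones kept, and the spots of a probe averaged. Probes were named through the GRCr8 gene table: 10835 by accession, 5201 by symbol and 3440 by an older symbol, while 21536 kept the file's name. Tests covered the 25919 probes that were detected above background in both replicates of either group. The brightest probe stood for each of 22023 genes. limma 3.58.1 in R 4.3.3 (lmFit, eBayes, 2-sided, Benjamini-Hochberg over all genes, called at an adjusted p under 0.05) compared 2 testosterone with 2 control arrays without covariates. The fit was also run on simulated data with independent arrays and less noise than the real arrays had. That run does not show how the fit behaves on these arrays. The number of arrays limits the precision. Named genes were every member, the 3 largest differences of each kind in each of 12 gene lists, and the 5 genes nearest to Il1rn; not all are given in the text, and 1 of the last is not reported here. Other genes of the lists that the text names (Nfkbia, Icam1, Cd68, Adgre1, Nlrp3, Aim2) were chosen after their values were seen. Members and lists were chosen with earlier results of these data known. Alternatives covered the background correction, scaling, detection filter, probe choice, floor, lost area, replicate block and leaving out each array.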

Additional observations from a re-analysis of the deposited data

How the results depend on the processing

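No gene was called by limma under any alternative that kept all 4 arrays, with 17 (normexp background) to 629 (no detection filter) genes at an unadjusted p under 0.05 against 175. Leaving out 1 array gave 0 to 35 genes called, the 35 without control replicate 2, where the single control array is taken to vary as the testosterone pair did. The control array kept in that fit, control replicate 1, held 115 of the 116 lost spots, and every gene called there was higher with testosterone. The part of the lost spots in those calls was not tested. The count of members at least 2-fold apart between treatments was 0 in the main setting and was 0 at 1.5-fold too. Without testosterone replicate 1 the differences of Il1b and Il1r2 were 1.11 and 1.86, and without control replicate 2 they were 1.05 and 3.04. Those fits leave 1 array in a group and unbalance the numbers, between which Il1b differed by 1.95. Whether treatments separate these members there was not tested, and no share of all genes is given. Positive testosterone differences among the IL-1 responsive genes, a count examined after seeing the data, numbered 24 in the main setting. They numbered 21 with the normexp background and with the authors' deposited values, 22 after quantile normalization and 20 of 21 without columns 57 to 85. On leaving out 1 array they numbered 2 to 24.

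In the fit that has a replicate block, 0 genes were called by limma, 618 had an unadjusted p under 0.05, and the members' interval half-widths went from 0.56 to 3.43 without it to 0.41 to 1.72 (adjusted p = 1.00 in limma for each). The pairing was checked through the correlation of deviations between arrays of the same number, 0.471. Nothing in the labels says what the number marks, and the main test is unpaired.

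Signs of small testosterone differences turned under some settings: Casp1 (-0.020) and Il18 (0.0089) with normexp, Il18 (0.012) and Il1rl1 (-0.34) with the mean over probes, and Il18 (0.036) without columns 57 to 85. Leaving out 1 array gave ranges that included both signs, from -0.12 to 0.25 for Casp1, -0.58 to 0.55 for Il18, -0.28 to 0.46 for Il1a, -0.90 to 1.11 for Il1b, -0.20 to 0.11 for Il1r1, -0.52 to 3.04 for Il1r2, -0.21 to 0.059 for Il1rap, -0.81 to 0.50 for Il1rn and -0.58 to 0.79 for Il33. Without columns 57 to 85 the second Il18 probe, at 0.036, stood for the gene. The mean over probes takes in the second probes, at 0.036 for Il18 and -0.87 for Il1rl1. Apart from these and the left-out arrays, which unbalance the numbers, the cause was not tested. Between numbers 2 and 1 the members apart were 9 in the main setting, where 63.2% of all genes were apart, and 8 to 10 over all alternatives. The 8 were of 9 members tested without columns 57 to 85, against 64.6% of all genes. The 10 came without testosterone replicate 2 or control replicate 2, where 78.5% and 83.5% of all genes were apart. Of the differences of apart members only that of Il1r1 turned sign, to -0.10 without columns 57 to 85, where its other probe stood for it. Some sizes moved. With the mean over probes Il1rn went from -1.23 to -0.88, less than 2-fold, and Il33 from 1.07 to 1.31. With the normexp background the dim Il1a went from 0.69 to 0.38.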
